A study of Mus musculus with 10 samples.

Results

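The regions described here were open at day 3 of reprogramming and listed at no other stage. They were found by merging the overlapping ATAC-seq peaks of all 10 libraries into 208851 regions and keeping those with a peak in both DAY3 lists and in none of the 8 MEF, DAY6, DAY9 and ESC lists, where 1 bp of overlap counted as a peak. The rule kept 1044 regions, 0.500% of all regions and 2.95% of the 35396 that both DAY3 lists hold. Since the regions were chosen by the peak calls in these lists, their presence at day 3 and absence elsewhere is a description and carries no test. Applied to the other stages, the same rule kept 17371 regions for MEF (8.32%), 423 for DAY6 (0.203%), 4630 for DAY9 (2.22%) and 16521 for ESC (7.91%).

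Mouse embryonic fibroblasts (MEF) of the strain C57BL/6 x 129 carried OKSM, a polycistronic cassette of the factors Oct4, Klf4, Sox2 and Myc, at Col1a1, and M2rtTA, the activator that turns it on in doxycycline, at Rosa26. MEF were collected unsorted in fibroblast medium without doxycycline. DAY3, DAY6 and DAY9 are the same kind of cells after 3, 6 and 9 days in ESC medium with 1 ug/ml doxycycline and 50 ug/ml ascorbic acid, unsorted at DAY3 and sorted for the surface antigen SSEA1 at DAY6 and DAY9. ESC is the line V6.5, unsorted, grown on irradiated feeders, with no cassette. DAY3 thus differs from DAY6 and DAY9 in sorting as well as in time, and the 2 differences cannot be told apart. Each library started from 50000 cells, and all carry one batch name.

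In ATAC-seq a transposase inserts adapters into DNA that is not wrapped in nucleosomes, so peaks mark promoters, enhancers and other sites bound by regulatory proteins. Reprogramming factors close fibroblast enhancers and open those of pluripotent cells in steps, and some sites are known to open for a time and close again. Enhancers lie away from the promoters they act on and differ more between cell types than promoters do.

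Of the 1044 regions, 7 covered part of the 250 bases in front of an annotated start site, and the 4 windows that a region covered in full are printed here because they show the sequence that was open. The windows are from RefSeq on GRCm38.p6, 5′ to 3′ on the strand of the gene. Capitals mark matches to the searched motifs.
Prelp, chr1:133921402-133921651, minus strand: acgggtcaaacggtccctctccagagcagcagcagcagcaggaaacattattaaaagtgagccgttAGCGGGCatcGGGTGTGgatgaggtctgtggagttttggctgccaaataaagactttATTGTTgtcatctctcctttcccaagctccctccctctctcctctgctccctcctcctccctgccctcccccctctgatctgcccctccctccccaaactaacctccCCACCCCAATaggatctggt
Arhgef7, chr8:11779034-11779283, plus strand: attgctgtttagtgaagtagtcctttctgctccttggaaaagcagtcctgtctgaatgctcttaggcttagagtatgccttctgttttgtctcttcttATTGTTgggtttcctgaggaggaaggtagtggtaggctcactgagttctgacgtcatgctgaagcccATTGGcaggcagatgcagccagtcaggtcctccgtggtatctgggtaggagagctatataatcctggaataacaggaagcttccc
Gm33276, chr6:126365999-126366248, minus strand: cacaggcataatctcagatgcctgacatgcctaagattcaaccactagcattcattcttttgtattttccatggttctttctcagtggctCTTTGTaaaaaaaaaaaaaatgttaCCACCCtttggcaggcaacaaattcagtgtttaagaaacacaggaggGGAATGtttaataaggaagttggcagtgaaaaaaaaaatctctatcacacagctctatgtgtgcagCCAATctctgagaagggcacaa
Gm31879, chr3:87290087-87290336, plus strand: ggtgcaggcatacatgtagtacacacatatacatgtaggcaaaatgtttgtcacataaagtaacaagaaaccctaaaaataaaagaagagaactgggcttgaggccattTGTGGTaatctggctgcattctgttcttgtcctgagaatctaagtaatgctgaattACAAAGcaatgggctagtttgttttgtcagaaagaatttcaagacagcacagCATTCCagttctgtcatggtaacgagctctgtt

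Prelp is a leucine-rich proteoglycan of the extracellular matrix, Arhgef7 an exchange factor for the GTPases Rac1 and Cdc42, and Gm33276 and Gm31879 are non-coding genes. The fold over background in DAY3 replicate 1 and 2 was 4.52 and 2.99 at Prelp, 3.11 and 3.65 at Arhgef7, 5.39 and 5.90 at Gm33276, and 4.28 and 3.51 at Gm31879. The table holds 3 start sites for Arhgef7 and 1 for each of the others. GC content was 55.6% at Prelp, 48.0% at Arhgef7, 38.8% at Gm33276 and 39.2% at Gm31879, and the median of all 32851 windows was 52.4%. The Prelp window holds 5 CpG dinucleotides, the Arhgef7 window 2, the Gm31879 window 1 and the Gm33276 window 0, where the median window has 6. The other 3 windows were covered in part, 90.4% at the non-coding gene Gm31453, 46.0% at Cep170, a centrosomal protein, and 44.4% at Gm35315.

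The motifs were searched on both strands as fixed letters: AP-1 (TGANTCA), KLF (GGGNGTG and CCACCC), OCT4 (ATGCAAA), SOX (AACAAT and ACAAAG), TEAD (GGAATG), RUNX (TGTGGT), CEBP (TTGCAA), E-box (CACGTG), FOX (TGTTTAC), the GATA factors (AGATAA), ETS (CCGGAAG), NFY (CCAAT) and the CTCF core (AGNGGGC). The Prelp window holds 1 match each to both KLF motifs, the first SOX motif, the NFY motif and the CTCF core, with the second KLF match and the NFY match overlapping at 1 base. The Arhgef7 window holds 1 match each to the first SOX motif and the NFY motif. The Gm33276 window holds 1 match each to the second KLF, the second SOX, the TEAD and the NFY motif, and the Gm31879 window 1 each to the second SOX, the TEAD and the RUNX motif. Of the windows not printed, Gm31453 holds 1 match to the first SOX motif, Gm35315 holds 2 to the second SOX motif and 1 to the GATA motif, and Cep170 holds none. Among all windows of this length, the KLF motifs occur in 26.1% and 28.1%, the SOX motifs in 9.42% and 16.5%, the TEAD motif in 12.6%, the RUNX motif in 14.0%, the GATA motif in 9.99%, the NFY motif in 33.8% and the CTCF core in 22.4%. A match describes the letters only.

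Before the regions are described, the state of the libraries is summarised once. The lists held 45497 to 88980 peaks, fewest in the DAY3 libraries (45766 and 45497), and read totals are not part of them. A background pileup, the number of reads or fragments expected at most summits, was recovered from the fold and p-value and served as relative depth. It was 5.304 and 5.27 in DAY3 and 2.327 to 8.322 in the other libraries. At regions with pileups of 100 to 200 (4326 regions) the squared difference of the DAY3 libraries was on average 1.33 times the variance of counting noise. This is little more than sampling gives, and they were counted as 1 sample. The DAY9 libraries were nearly as close, at 1.42. At such pileups the ratio was 3.61 in DAY6, 5.56 in MEF and 8.11 in ESC. A start point is a RefSeq start site or, for the 4395 protein-coding genes with none in the table, either end of the gene, and a peak within 1 kb of it is called a start-site peak. Fibroblast genes had a start-site peak in both lists at 7 of 7 loci in MEF and 4 of 7 in DAY3 (Col1a1, Col1a2, Twist1 and Prrx1). They had one at 5 of 7 in DAY6, 3 of 7 in DAY9 and 5 of 7 in ESC, so this list does not set ESC apart from DAY3. Epithelial genes had one at 0 of 5 in MEF, 2 of 5 in DAY3 (Krt8 and Esrp1), 5 of 5 in DAY6 and ESC and 4 of 5 in DAY9. Pluripotency genes had one at 2 of 6 in MEF and DAY3, 5 of 6 in DAY6 and 6 of 6 in DAY9 and ESC. Of the macrophage markers, Ptprc and Adgre1 had none in either DAY3 list, Csf1r had one in 1 DAY3 list and in no library of the other stages, and Spi1 had one in both lists of every stage. Of the endothelial markers, Pecam1 had none in any list. Cdh5 had one in 1 list each of DAY3, DAY9 and ESC and in neither MEF nor DAY6 list. Tek had one in both lists of DAY3, DAY6, DAY9 and ESC and in 1 MEF list. The part of other cell types in the DAY3-only regions was not tested.

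The plot of DAY3 regions by their presence in other libraries shows where the 1044 regions lie among all regions of both DAY3 lists. The most common class was the region with a peak in all 8 other lists, which held 15359 regions (43.4%). A further 1098 regions (3.10%) had a peak in exactly 1 other list. That list was DAY6 replicate 1 for 417 of them, DAY6 replicate 2 for 205, MEF replicate 1 for 175 and MEF replicate 2 for 97. DAY9 replicate 1 accounted for 92, DAY9 replicate 2 for 73, ESC replicate 1 for 23 and ESC replicate 2 for 16. The regions missed by the rule because of 1 list were thus most often shared with a library of day 6. Outside the rule on the other side were 3316 regions listed in 1 DAY3 library alone, 1726 in replicate 1 and 1590 in replicate 2.

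**Figure D1:**
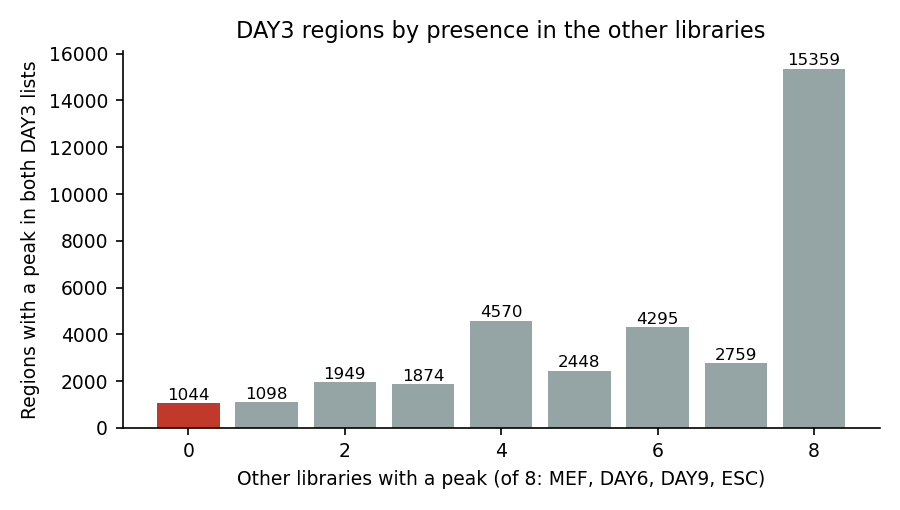
Regions with a peak in both DAY3 lists (y axis, number of regions) by the number of the 8 other libraries that also list them (x axis). The red bar is the 1044 DAY3-only regions, and 15359 regions are listed in all 8 other libraries.

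Values at the edge of the rule were close on both sides. A score, which is 10 times the −log10 p-value, of 50 was the lowest in the lists. Several members tied at a lower score of 50, and those named were taken by chromosome order. They lay nearest to Tbl1xr1 (scores of 50 and 53 in DAY3 replicate 1 and 2), Pdgfc (50 and 77), Necab1 (50 and 61) and Gstk1 (50 and 68). Just outside were regions nearest to Crybg1, Mcu, Gm46240 and Gm10406, each listed in DAY9 replicate 2 with a score of 50 and a fold of 2.63. They share 1 −log10 p, the lowest in that list, which accounts for only 73 of the regions with 1 other list. Their lower DAY3 scores were 55, 78, 66 and 53. Among the 1098 regions with 1 other list, the other peak had a median score of 75, and in 281 it was under 60. The count of DAY3-only regions was 2453 when every list was cut to the length of the shortest, 84 when only the upper 50% of the peaks of each DAY3 list by score were used, 2669 without DAY3 replicate 1 and 2806 without DAY3 replicate 2.

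The DAY3-only regions were weak peaks. The fold over local background, the ratio of the summit to what the caller expected there, had a lowest value of 1.99, a median of 3.65 and a highest value of 9.89 in DAY3 replicate 1. In DAY3 replicate 2 it was 2.07, 3.67 and 10.7. The other 34352 regions of both DAY3 lists had medians of 5.39 and 5.42. The median summit pileup was 24 in both libraries, against 42 in the other regions, and the lowest pileup was 18. The median width of the merged regions was 524 bp, against 950 bp for the other regions of both DAY3 lists, which merge peaks of more libraries. It was 804 bp for regions listed at DAY3, DAY6 and DAY9 but not in MEF or ESC. For the regions that the rule kept for DAY9 it was 460 bp. Single peaks in the DAY3 lists had medians of 530 and 532 bp. These values come from the lists that chose the regions and are given without a test.

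The libraries ranked the members only in part alike, as the plot of the folds shows. The fold of a member differed between the DAY3 libraries by a median factor of 1.15, by more than 1.5 times in 58 members (5.56%) and by more than 2 times in 2. It was higher in replicate 1 for 497 of the 1044. Across members, Pearson's r of the log2 folds was 0.61 and Spearman's rho 0.52 (n = 1044), a description over regions of 1 pair of libraries. Both scores reached 100 in 209 members and 200 in 21. The lower score was under 60 in 272 (26.1%).

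**Figure D2:**
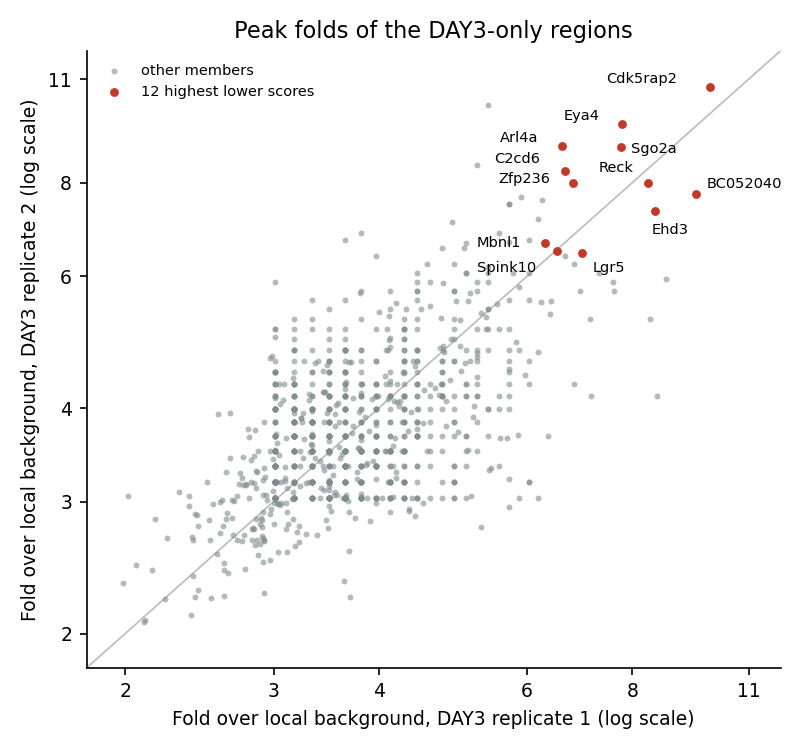
Fold over local background of each of the 1044 DAY3-only regions in DAY3 replicate 1 (x axis) and replicate 2 (y axis), both on log scales, with the line of equality. The red points are the 12 members with the highest lower score, labelled by their nearest gene, and the quartiles of replicate 1 are folds of 3.17 and 4.28. Many points share values because pileups are whole numbers over a common background.

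Among regions of similar strength the DAY3-only share was largest at the bottom. With a lower DAY3 score of 50 up to 100, 835 of 11799 regions (7.08%) were DAY3-only. With a score of 100 up to 200 they were 188 of 8600 (2.19%), and at 200 or more 21 of 14997 (0.140%).

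Whether regions of this height could have been listed in the other libraries was then estimated from their pileups. A peak needed a −log10 p of 5, which at the background of each library is a pileup of 14 in MEF replicate 1, DAY6 replicate 1 and ESC replicate 1, of 11 in DAY6 replicate 2, of 18 in ESC replicate 2, of 21 in the DAY9 libraries and of 23 in MEF replicate 2. When the DAY3 pileup of each member was scaled by the ratio of background pileups, all 1044 members reached this height in MEF replicate 2, both DAY9 libraries and ESC replicate 2. Each of these has a background above that of DAY3, so this outcome was fixed once members had passed in DAY3. In the other libraries 760 reached it in DAY6 replicate 1 and in ESC replicate 1 (72.8%), 702 in MEF replicate 1 (67.2%) and 434 in DAY6 replicate 2 (41.6%). When the pileup above background was instead scaled by its median ratio at regions listed in all 10 libraries, all 1044 were in reach in every library but MEF replicate 2, where 702 were (67.2%). By the first scaling 434 members were in reach of all 8 lists and 760 of at least 1 list of every stage, and by the second 702 and 1044. These counts use the most common background of each library. A member over a higher local background would need a taller pileup, so the counts can be too high. The 434 are among the 702 by construction, since both scalings rise with the same DAY3 pileup. For the remaining members, absence from some lists and lower depth there cannot be told apart by the first scaling.

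**Figure D3:**
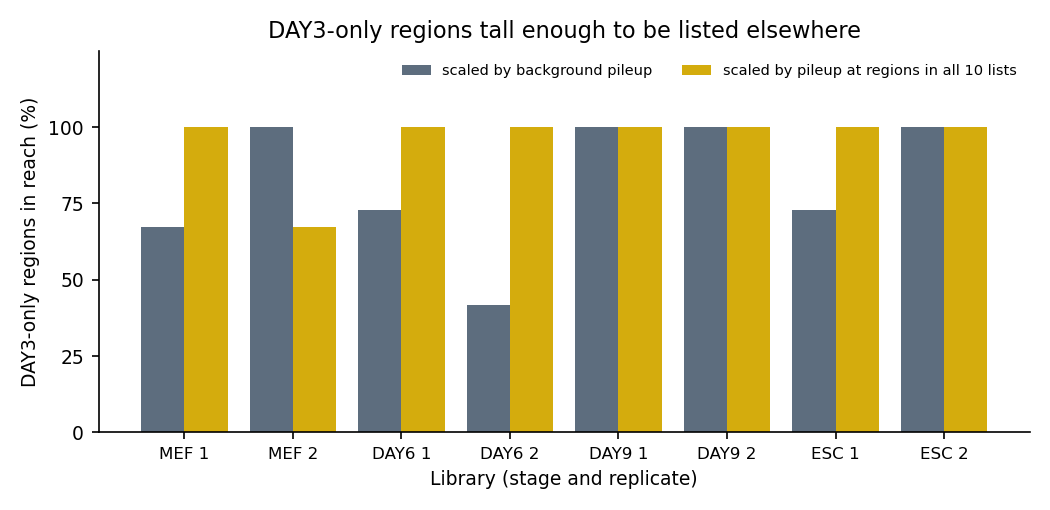
Share of the 1044 DAY3-only regions (y axis, percent) whose DAY3 pileup, scaled to each other library (x axis), reaches the lowest pileup listed there. Grey bars scale by background pileup and yellow bars by the pileup at regions in all 10 lists, and the lowest bar is 41.6% in DAY6 replicate 2.

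Few DAY3-only regions lay at gene starts. Of the 1044, 21 came within 1 kb of a start point of a protein-coding gene, 16 of them at a known start site and 5 at a gene end. This is a share of 2.01% with an exact 95% Clopper-Pearson interval of 1.25% to 3.06% that covers counting error only. The share was 34.7% (34.2% to 35.2%) for the other regions of both DAY3 lists, 9.05% for all regions, 2.27% (1.81% to 2.82%) for the 3520 regions listed in both libraries of all 3 induced stages but absent from the MEF and ESC lists and 3.26% (2.77% to 3.81%) for the DAY9-only regions. The interval of the DAY3-only regions was apart from that of the other DAY3 regions and overlapped those of the transient sets. Regions are not replicates, and no p-value was computed. In the weakest band of scores the share was 2.04% for members and 13.6% for the other DAY3 regions, in the middle band 2.13% and 23.5%, and in the strongest 0% (0 of 21) and 56.4%. The scores in the strongest band have no upper bound, and the highest lower score of a member there is 490. The share was 2.53% for the 434 members in reach of all other lists. It rose to 5.94% with a window of 2.5 kb, to 5.84% with non-coding genes included and to 3.54% when either end of every gene counted.

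Most members lay far from a start point. The median distance was 43.4 kb, against 10.7 kb for the other DAY3 regions, 38.2 kb for the regions shared by DAY3, DAY6 and DAY9 alone and 30.3 kb for the DAY9-only regions. A distance of 1 to 10 kb was found for 179 members (17.1%), 10 to 50 kb for 358 (34.3%), 50 to 100 kb for 176 (16.9%) and 100 kb or more for 310 (29.7%). The last share was 14.4% for the other DAY3 regions, 26.0% for the regions of the 3 induced stages and 21.9% for the DAY9-only regions.

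**Figure D4:**
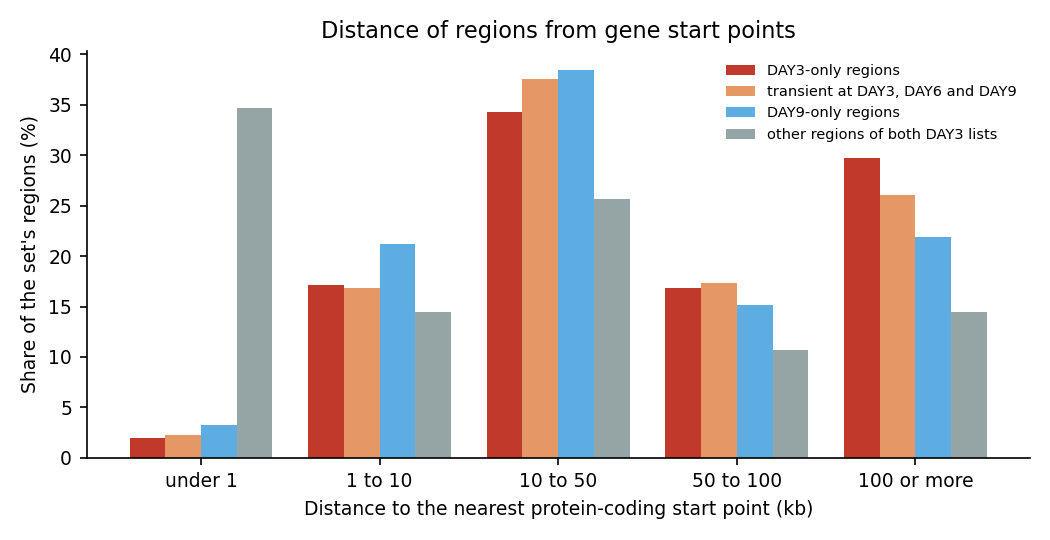
Share of regions (y axis, percent) by distance to the nearest protein-coding start point (x axis, kb) in 4 sets: DAY3-only, transient at DAY3, DAY6 and DAY9, DAY9-only, and the other regions of both DAY3 lists. The 3 transient sets have 2.01% to 3.26% of their regions under 1 kb, and the other DAY3 regions have 34.7%.

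The 21 members at start points fell into 2 kinds, named here after their values were seen. For 11 of the genes, 8 with a known start site and 3 with gene ends only, a start point also had a peak in all 10 libraries. These include Lonp2, a peroxisomal protease, with folds of 6.03 and 5.58 in DAY3 replicate 1 and 2, Cep170 (4.12 and 3.51) and Arhgef7. For 7 genes, all with a known start site, no library but the DAY3 pair had a peak at a start site. These were Prelp, Aadac, an arylacetamide deacetylase (5.23 and 5.90), Dmp1, a matrix protein of bone and dentin (5.08 and 4.15), Cpa5, a carboxypeptidase (3.97 and 4.15), Tcf20, a transcriptional coregulator (4.07 and 3.51), Lect2, a secreted liver protein (3.47 and 2.84), and Gm21560 (3.01 and 3.67). The remaining 3 were Zfp663 with a start-site peak in 6 libraries and Itgb2 and Trim43c, both with gene ends only, with one in 4. Trim43c has close copies in the genome, so the placement of its reads is uncertain.

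A little over 1 in 2 members lay inside a protein-coding gene. They were 549, or 52.6% (49.5% to 55.7%), against 68.2% (67.7% to 68.7%) of the other DAY3 regions, 58.9% (57.3% to 60.6%) of the regions of the 3 induced stages, and 51.3% of both the DAY9-only and all regions. In the weakest band of scores the shares were 52.6% for members and 57.8% for the other DAY3 regions, and in the middle band 52.1% and 63.8%. Exons and introns were not analysed here. The 549 members lay in 509 genes, 43 of which held at least 2. Genes with a member inside had a median length of 111 kb and those with at least 2 a median of 254 kb, against 17.2 kb for all protein-coding genes and 26.1 kb for genes with another DAY3 region inside. These lengths are not adjusted for the room that a longer gene offers. The sets also differ in size, with 23437 of the other DAY3 regions inside genes. A preference of the members for long genes was not tested.

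The 12 members with the highest lower score had folds of 6.30 to 10.7. The region with the highest lower score lay inside Cdk5rap2, a centrosomal protein that anchors microtubule nucleation, at chr4:70347168-70347931, and had a fold of 9.89 in DAY3 replicate 1 and 10.7 in replicate 2, with pileups of 71 and 81. Every other library had its nearest peak 8.04 to 8.20 kb away. In gene-poor surroundings on chromosome 2, the region at chr2:115403127-115404105, 177 kb from BC052040, had folds of 9.52 and 7.72. There the DAY6, DAY9 and ESC libraries had their nearest peaks 18.4 to 95.8 kb away and the MEF libraries 8.50 and 8.71 kb away. Near Reck, a membrane-bound inhibitor of matrix metalloproteinases, the region at chr4:43947468-43948191 had folds of 8.36 and 8.0 and lay 2.66 kb from the gene.

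Sgo2a, a shugoshin that protects cohesin at centromeres, had a region 1.30 kb from its start, at chr1:57983268-57984041, with folds of 7.75 and 8.93. Inside Eya4, a phosphatase and transcriptional coactivator, the region at chr10:23322342-23322938 had folds of 7.77 and 9.57, and the nearest peak of another library was 13.1 kb away. The region 22.3 kb from Ehd3, an ATPase of endocytic recycling, had folds of 8.52 and 7.34 (chr17:73781793-73782568). Here replicate 1 was the higher library, while at Sgo2a and Eya4 it was replicate 2.

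The region nearest to Arl4a, a small GTPase, lay 214 kb from it at chr12:39818650-39819555 and had folds of 6.604 and 8.95. On chromosome 18, the region 63.9 kb from the zinc finger gene Zfp236 had folds of 6.81 and 8.0 (chr18:82756815-82757560). Inside C2cd6, a C2 domain protein, the region at chr1:59003024-59003748 had folds of 6.66 and 8.29. In all 3 of these regions replicate 2 was the higher library. At Zfp236 the ESC libraries had a peak 2.05 and 2.07 kb away and DAY9 replicate 2 one 2.13 kb away, and at C2cd6 no other library had one within 28.7 kb.

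The last 3 of the 12 were close between the libraries. The region 118 kb from Mbnl1, a splicing regulator, had folds of 6.30 and 6.65 (chr3:60748095-60748762). MEF replicate 1 had a peak 1.63 kb from it, and the DAY6 and DAY9 libraries had none within 130 kb. Lgr5, a receptor for R-spondins and a marker of Wnt-responsive stem cells, had a region inside the gene at chr10:115509830-115510662 with folds of 6.98 and 6.44. The region inside both Spink10 and Spink13, inhibitors of serine proteases, had folds of 6.50 and 6.48 (chr18:62640384-62641257).

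Most DAY3-only regions had no other member within 50 kb. Of the 1044, 93 (8.91%) had another member within 50 kb, 26 within 10 kb and 167 within 100 kb. Joined at 50 kb, they formed 951 single regions, 39 pairs and 5 triplets. The share within 50 kb was 26.8% for the 3520 regions of the 3 induced stages and 28.3% for the 4630 DAY9-only regions. For the 34352 other DAY3 regions it was 85.2%. These sets are larger, so their shares cannot be compared directly with the 8.91%. Because a larger set has smaller gaps, the median gap was divided by the mean spacing of the set. This ratio was 0.60 for the DAY3-only regions (1472 kb over 2462 kb), 0.48 for the regions of the 3 induced stages, 0.47 for the DAY9-only regions and 0.35 for the other DAY3 regions, where a smaller ratio means more crowding. Counts per megabase gave another order. Their variance over their mean, less 1 and divided by the mean, was 0.647 for the DAY3-only regions, 0.566 and 0.540 for these transient sets and 0.582 for the other DAY3 regions, where a larger value means more crowding. The measures do not give 1 ranking of the sets. The share of members in clusters rose to 19.9% without DAY3 replicate 1, to 20.9% without DAY3 replicate 2, to 13.8% without DAY6 replicate 1 and to 20.3% with lists of equal length, settings that also keep more regions. It was 4.61% for the 434 members in reach of all lists and 2.38% for the upper 50% of the DAY3 peaks.

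The tightest triplet lay 17.98 kb from Mboat2, an acyltransferase of phospholipids, within 14.1 kb of chromosome 12 (chr12:24799373-24813450). Its regions had folds of 4.28, 3.53 and 4.08 in DAY3 replicate 1 and 3.83, 3.35 and 3.51 in replicate 2. Within this span the MEF and ESC lists had 0 peaks, and the DAY6 and DAY9 lists 1 each. A triplet around Aldh3a1, an aldehyde dehydrogenase, covered 36.5 kb (chr11:61184046-61220576), with folds from 2.97 to 3.67 over both libraries, and the DAY6 and DAY9 lists had 4 or 5 other peaks there.

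The triplet at Clic4, a chloride intracellular channel protein, covered 44.4 kb (chr4:135191493-135235907), with 2 regions inside the gene and 1 beside it, between Clic4 and the transcription factor gene Runx3. Its folds ran from 3.22 to 4.34 in replicate 1 and from 2.92 to 3.99 in replicate 2. The triplet near Galnt18, a mucin-type glycosyltransferase, covered 65.3 kb (chr7:111831327-111896602), and its middle region had folds of 8.41 and 5.26. The tightest pair, at chr13:26124869-26126369, spanned 1.501 kb in a gene desert 642 kb from Hdgfl1, with folds of 4.80 and 3.68 in replicate 1 and 4.09 and 3.01 in replicate 2. The span of this pair held no peak of the other 8 libraries.

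The megabase with the most members was on chromosome 8, from 11 Mb on, and was picked out after the values were seen. It held 7 of them among 37 regions of both DAY3 lists, while 7 other megabases held 4, 42 held 3, 147 held 2 and 589 held 1. Of the 7 regions, 1 lay inside Col4a1 and 2 inside Col4a2, the genes of the main chains of type IV collagen in basement membranes, 1 lay 24.7 kb beyond Col4a1, 2 lay inside Arhgef7 and 1 was nearest to Tex29. The Col4a1 region, at chr8:11276524-11277719, had folds of 5.23 and 4.41 and was the strongest of the 7. The Col4a2 regions had folds of 3.62 and 3.87 in replicate 1 and 3.48 and 3.36 in replicate 2. The second Arhgef7 region, 26.9 kb from the start site printed above, had folds of 3.47 and 3.94. The megabase was also dense in other peaks, with 79 and 61 in the MEF lists and 39 to 59 in the lists of the other stages.

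The members were spread over all autosomes and the X chromosome, as the plot by chromosome shows. Per 100 regions of both DAY3 lists, chromosome 12 had 3.90 (2.97 to 5.01) and chromosome 13 had 3.87 (2.99 to 4.92). Chromosome 11 had the fewest of the autosomes, 2.36 (1.78 to 3.06). Only the intervals of chromosomes 12 and 13 lay above the 2.95 of all chromosomes, by a small margin and among 20 intervals. The X chromosome had 26 members, and the Y chromosome had 0 members among 40 DAY3 regions.

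**Figure D5:**
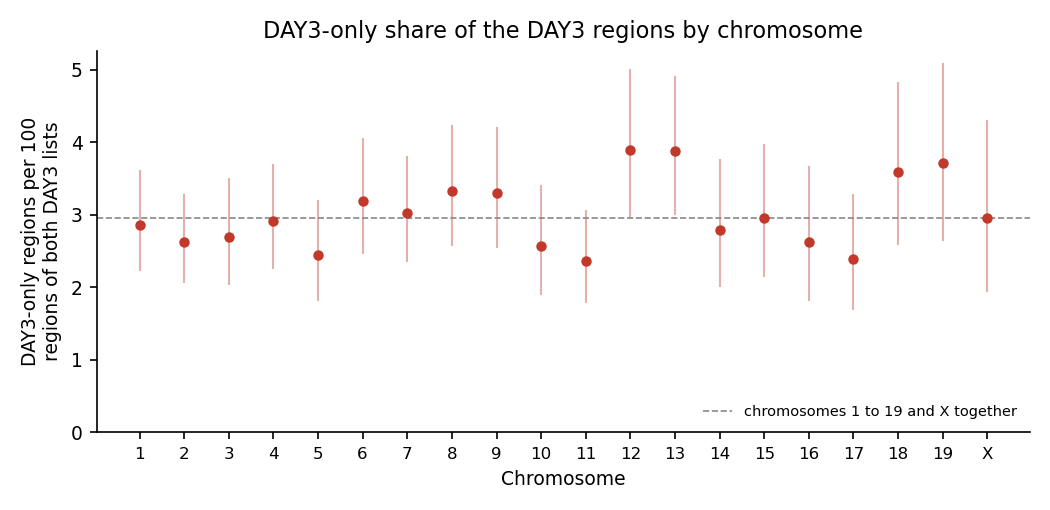
DAY3-only regions per 100 regions of both DAY3 lists (y axis) on each chromosome (x axis), with exact 95% intervals that cover counting error only. The dashed line is the value over chromosomes 1 to 19 and X, and the highest points are chromosome 12 at 3.90 and chromosome 13 at 3.87.

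The 10 genes with the most members inside, of which the last 2 were taken by their highest score among the genes with 2 members, were 115 to 1302 kb long. Uvrag, a regulator of autophagy and endosome traffic, held 4 of its 11 DAY3 regions as members, with folds of 3.65 to 4.42 in replicate 1 and 3.19 to 4.56 in replicate 2. Exoc4, a subunit of the exocyst, held 3 of 13, and among these genes the libraries differed most here. One had folds of 5.23 and 8.45 and another 7.14 and 4.15.

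Slc22a23, a member of the organic ion transporter family, held 3 of 14, with folds of 3.35 to 4.34 over both libraries. Ctnna2, the neuronal alpha-catenin, held 3 of 7, and Opcml, an adhesion protein of neurons, held 3 of 8, in genes of 1098 kb and 1135 kb. Pde4d, a phosphodiesterase that breaks down cyclic AMP, held 3 of 30. Eya4 held 2 of 7 and Spink10 2 of 4. In none of these genes were the members all of the DAY3 regions, and every other library had at least 1 peak inside each of them.

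The gene lists held few genes next to DAY3-only regions, as did all genes. Of all 21887 protein-coding genes, 691 (3.16%) had a member inside or within 10 kb, and 71.4% had any region of both DAY3 lists that near. The epithelial list had 2 of 20 genes with a member. Lama3, a laminin chain of epithelial basement membranes, had folds of 5.08 and 3.67. The list of keratinocyte genes had 1 of 16, Perp, a desmosome protein and p53 target, at 3.33 and 3.51. The Wnt list had 1 of 14 (Lgr5), and the TGF-beta list 1 of 14, the ligand gene Tgfb3, with folds of 3.65 and 3.51 at 9.02 kb. The Klf and Sp factors had 1 of 20, Klf13, a zinc finger factor, with folds of 4.28 and 3.67 at 4.50 kb.

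No gene had a member in the lists of fibroblast (7 genes), pluripotent (17), macrophage (4), endothelial (3), AP-1 (12), trophoblast (12), neural (13), muscle (10) and senescence and p53 genes (10). DAY3 regions of other kinds were common at the same genes, at 13 of the 17 pluripotent genes and 12 of the 12 AP-1 genes. With 3 to 20 genes a list and a background of 3.16%, counts of 0 to 2 are too small to set a list apart.

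Many members lay near peaks of other stages, though less often than the other DAY3 regions did. A peak of a given one of the 8 other libraries was found within 10 kb for 47.8% (ESC replicate 1) to 53.2% (MEF replicate 1) of the members. Among the other DAY3 regions that the library does not list, the range was 52.3% to 57.5%. For the DAY3 libraries, a further peak lay within 10 kb of 47.6% and 46.8% of the members and 50.5% and 50.7% of the other DAY3 regions. The members' share was the lower in each of the 10 libraries, which all use the same members and so are not separate findings. The compared sets were not matched for peak strength or distance from gene starts, and a trait of the members was not tested. No peak of the 8 other libraries lay within 1 kb for 809 members (77.5%) and within 10 kb for 193 (18.5%), counts given for the members only.

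The genes next to the members had open start sites in most libraries. Within 100 kb of a member, 683 protein-coding genes were nearest to one, and 524 of them (76.7%) had a start-site peak in both DAY3 lists. Over the 10 libraries 76.7% (MEF replicate 2) to 82.4% (ESC replicate 2) of the 683 had one. For the 8427 genes nearest to other DAY3 regions away from starts the range was 69.6% to 78.2%, and for all protein-coding genes 58.1% to 65.9%. Only 72 of the 683 (10.5%) had no start-site peak in any list. The DAY3 shares, 78.3% and 78.5%, lay within the range of the stages where the members were not listed. Gene activity was not analysed here.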

How the data were processed

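Libraries were made from 50000 cells each and sequenced in paired-end mode, per the labels' protocols. Per the submitters' processing notes, Bowtie2 2.3.2, deepTools 2.3.6, MACS2 2.1.1 and the build mm10 were used, with no roles given. Duplicate handling, transposase offset and filters are not given in the sources used here. The authors deposited 1 peak list per library, not pooled, whose score is 10 times the −log10 p-value. The authors also deposited a fold, the linear ratio of the summit to its surroundings, and a −log10 p-value and −log10 q-value for each peak. Lists hold no read totals.

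Peaks were merged in Python 3.11.15 with pandas 2.3.3 and numpy 2.4.6, and intervals came from scipy 1.17.1. The summit pileup n and its expectation were recovered from the deposited fold and −log10 p (at most 300) as (n + 1) / (expected + 1) and a Poisson tail, to 0.01 in −log10 p, in at least 99.9969% of peaks per library. The merging, recovery and overlaps were tested on simulated data. RefSeq genes of GRCm38.p6 gave names and positions. Start sites were known for 17492 protein-coding genes, and 4395 others were represented by both gene ends.

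Members and gene lists were chosen with earlier results of these data known. Named were the 12 members with the highest lower DAY3 score, the 6 largest clusters, the 10 genes with most members and up to 6 genes per list. On either side of the rule 4 regions at its edge were named, with ties taken by chromosome order. Some members and genes that this rule picks are not reported here. No test was run: regions are not replicates, and 2 libraries against 2 cannot give a two-sided exact permutation p below 0.333. Motifs and sequences of the regions outside promoter windows were not analysed here. Alternatives concerned overlap, merging, list length, score, windows, genes and libraries left out. Same-numbered replicates deviated together by −0.0095 to 0.0221 (correlation over peak calls, 10 pairs of stages). The squared differences between the replicates of DAY3 and DAY9 were only 1.33 and 1.42 times the variance of counting noise. The correlation thus cannot settle whether the numbers pair the libraries.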

Additional observations from a re-analysis of the deposited data

How the results depend on the processing

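The number of DAY3-only regions was 2453 with lists of equal length (1038 of the 1044 members among them), 84 for the upper 50% of the DAY3 peaks by score and 434 when members had to be in reach of all 8 other lists, an alternative chosen after seeing the data. It was 1318, 932 and 809 with 50% cover, with peaks up to 500 bp apart merged, and with no other peak within 1 kb. A replicate block by library number is the same rule and gives 1044 regions by construction. The rule within number 1 alone keeps 3801 regions and within number 2 alone 4344. Leaving out 1 library at a time gave 1062 to 2806 regions, a gene-start share of 1.93% to 2.88%, a gene-body share of 51.8% to 54.6% and a clustered share of 8.76% to 20.9%.

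The gene-start share was 3.51% with lists of equal length, 5.94% within 2.5 kb, 5.84% with all annotated genes and, chosen after seeing the data, 3.54% with either end of every gene. The gene-body share was 55.9% with lists of equal length, 58.3% for the upper 50% and 61.7% with all genes. The clustered share was 20.3% with lists of equal length, 2.38% for the upper 50%, 4.61% in reach of all lists, 2.49% at 10 kb and 16.0% at 100 kb. The cause of these shifts was not tested. Motif windows around the summits were not run. The limits are the weak peaks, unknown read totals, a background pileup that differs between libraries and DAY3 counted as 1 sample.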
